A study of Homo sapiens with 13 samples.

Results

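The genes described here are 10 members of the YAP and TEAD transcription programme: CCN1, CCN2, ANKRD1, AMOTL2, AXL, LATS2, AJUBA, TEAD1, YAP1 and WWTR1, which encodes TAZ. They were chosen by symbol as known members of the programme, with earlier results of these data known, and each matched 1 of the 62703 genes in both deposited count tables. RNA of 2 human ovarian carcinoma lines was measured in 13 libraries. SKOV3 cells carried a control vector, overexpressed RSF1, or overexpressed RSF1delUAB, with 3 libraries each. RSF1 is a chromatin remodelling factor that binds ubiquitinated histone H2A through its UAB region, and RSF1delUAB is, by its name, RSF1 without that region. OVCAR3 cells expressed a UAB peptide or a scramble control, with 2 libraries each, and both OVCAR3 groups had received doxycycline at 2000 ng/mL for 6 days. The labels do not say whether a line with a construct was a pool or a single clone, which promoter drove it, or whether replicates were separate cultures. The p-values below thus rest on a spread between libraries that may be technical. The line, the constructs, the doxycycline and the count table coincide, so effects in SKOV3 and OVCAR3 cannot be told apart from these and were not tested against each other.

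YAP and TAZ are coactivators with no DNA-binding domain that act on genes mainly through the TEAD factors. In the Hippo pathway the kinases LATS1 and LATS2 phosphorylate YAP and TAZ, which are then held in the cytoplasm or degraded. Several targets feed back on the pathway, and in ovarian carcinoma cells the programme is known for its link to growth, adhesion and migration.

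The promoters of CCN2 and ANKRD1, with that of YAP1 for the coactivator itself, are printed because they hold the TEAD motif GGAATG. They are RefSeq sequences on GRCh38.p14, the 250 bases before the transcription start, written 5′ to 3′ on the gene's strand, and capitals mark the motif matches. CCN2 lies on the minus strand at chr6:131951373-131951622, ANKRD1 on the minus strand at chr10:90921088-90921337, and YAP1 on the plus strand at chr11:102110197-102110446.
CCN2: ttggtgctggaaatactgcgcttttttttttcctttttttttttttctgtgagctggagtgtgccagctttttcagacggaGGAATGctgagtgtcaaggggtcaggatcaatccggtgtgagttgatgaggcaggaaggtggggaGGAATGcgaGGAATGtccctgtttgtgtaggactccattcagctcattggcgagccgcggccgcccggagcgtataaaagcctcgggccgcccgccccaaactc
ANKRD1: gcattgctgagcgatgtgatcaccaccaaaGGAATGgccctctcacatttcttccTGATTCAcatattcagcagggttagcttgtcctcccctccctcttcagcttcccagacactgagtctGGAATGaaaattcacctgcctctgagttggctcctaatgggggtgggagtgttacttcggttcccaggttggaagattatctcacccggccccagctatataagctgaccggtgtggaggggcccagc
YAP1: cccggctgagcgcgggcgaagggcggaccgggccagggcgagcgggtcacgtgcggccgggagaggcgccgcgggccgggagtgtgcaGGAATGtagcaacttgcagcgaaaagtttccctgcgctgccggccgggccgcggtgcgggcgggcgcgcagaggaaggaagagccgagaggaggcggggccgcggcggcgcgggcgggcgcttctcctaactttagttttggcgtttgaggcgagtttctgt
The search used GGAATG and its reverse complement CATTCC for TEAD, and TGANTCA, its own reverse complement, for AP-1, a factor that often binds beside TEAD. CCN2 held 3 TEAD matches, starting 169, 104 and 95 bases before the start. ANKRD1 held 2 TEAD matches, starting 220 and 128 bases before the start, and 1 AP-1 match, TGATTCA, starting 195 bases before it. YAP1 held 1 TEAD match. CCN1 and TEAD1 had no window in the set of promoters searched. Of the 8 genes with a promoter window, 6 held a TEAD match in a window, and 1 held an AP-1 match. Since 4 of these genes had 2 windows, that is 6 of 12 windows with a TEAD match. For AMOTL2, AXL and AJUBA that match stood in the window of an alternative start inside the gene, while the windows of LATS2 and WWTR1 held no TEAD or AP-1 match. Both WWTR1 windows also belonged to starts inside the gene, 33441 and 78689 bases from its start in the count tables. Of 35116 promoter windows of the same length, 11.9% held at least 1 TEAD match, 0.94% held 2 or more, and 6.57% held an AP-1 match. A match describes the letters and is not a measured binding site.

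Levels are CPM, counts scaled to the library total after TMM adjustment, and the tests are edgeR quasi-likelihood tests with Benjamini-Hochberg adjustment over all genes tested, at a threshold of 0.05. Values after ± are SDs for levels and standard errors for log2 fold changes. Total counts were 15194678 to 18748009 in SKOV3 and 18160558 to 24026993 in OVCAR3. RSF1 stood at 43.95 ± 3.08 CPM (SD, n = 3) in SKOV3 control, 719 ± 77.0 in RSF1 and 488 ± 25.6 in RSF1delUAB libraries, in the direction of the labels, and at 636 ± 101 and 687 ± 142 (SD, n = 2) in the OVCAR3 scramble and UAB libraries, where the labels name a peptide. No library was a copy of another: chi-square over its degrees of freedom was 2.24 to 3.85 for most replicate pairs of SKOV3, and 15 and 12.6 for the OVCAR3 pairs. It was 13.8 and 15.8 for RSF1 replicate 1 against the other RSF1 replicates, so that library stands apart. The epithelial marker PAX8 was at 506 CPM in SKOV3 control, while CDH1 and MUC16 were near 0 in SKOV3 (0.264 and 0.0663 CPM in control). Summed over 10 epithelial markers the level was 9332 to 10080 CPM in control, 4042 to 4594 in RSF1 and 8936 to 9490 in RSF1delUAB libraries, most of it ERBB2. ERBB2 alone stood at 8430 CPM in control, 2493 with RSF1 and 7567 with RSF1delUAB. Of 9 epithelial markers tested in SKOV3, 5 were higher and 2 lower with RSF1 than in control, and likewise with RSF1delUAB. Between the constructs, 2 were higher and 4 lower with RSF1. These counts stand beside 34.3% and 32.9% of all genes with RSF1, 34.5% and 32.1% with RSF1delUAB, and 18.5% and 20.2% between the constructs. WT1, with 9 counts over the control libraries, passed the filter on low counts only through the construct libraries. Of 9 fibroblast markers, summed levels were 6.42 to 8.03 CPM in control, 53.3 to 55.3 in RSF1 and 122 to 133 in RSF1delUAB libraries, and 50.3 to 50.8 in scramble and 44.1 to 56.2 in UAB libraries. Of the 6 fibroblast markers tested in SKOV3, 6 were higher in RSF1 and 5 in RSF1delUAB than in control, with 0 lower. Between the constructs, 0 were higher and 4 lower with RSF1, and all these counts stand beside the same shares of all genes. DCN, LUM, PDGFRA and THY1 had 3, 27, 6 and 15 counts over the control libraries. They passed the filter on low counts only through the construct libraries, so their direction against control was partly fixed by the filter. PDGFRB had 0 counts in SKOV3 control and RSF1delUAB libraries and COL3A1 had 1 to 9 counts in each SKOV3 group. Mesothelial markers summed to 26.7 to 28.5 CPM in control, 42.3 to 50.4 in RSF1 and 19.6 to 22.2 in RSF1delUAB libraries, without overlap. Of the 3 tested, 1 was higher and 0 lower with RSF1 than in control, and 0 and 1 with RSF1delUAB. Between the constructs 2 were higher with RSF1 and 0 lower, beside the same shares. LRRN4 stood at 7.84 CPM in control and 26.1 with RSF1, MSLN at 11.88 and 11.85, and UPK3B at 7.77 and 8.07. ITLN1 was at 0 in every group. Endothelial markers summed to 5.36 to 7.63 CPM in control, 0.699 to 1.01 in RSF1 and 0.678 to 0.924 in RSF1delUAB libraries. Both that were tested, PECAM1 and KDR, were lower with each construct than in control, beside 32.9% and 32.1% of all genes. At 2.35 and 3.97 CPM in control, they passed the filter on low counts only through the control libraries. Their direction was thus largely fixed by the filter. Neither was called between the constructs. In SKOV3, immune markers summed to 0.728 to 1.82 CPM. The part of these markers in the results below was not tested.

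All 10 genes passed the filter on low counts in both lines, ANKRD1 in SKOV3 only because of its counts in the RSF1 libraries, so that a call there is partly fixed by the filter. With RSF1, 5 of the 10 were higher and 4 lower than control, beside 34.3% and 32.9% of all 16735 genes tested, a share near the background in each direction for so short a list. With RSF1delUAB, 2 were higher and 5 lower than control, beside 34.5% and 32.1% of all genes. Between the constructs, 7 were higher with RSF1 than with RSF1delUAB, beside 18.5% of all genes, and 0 were lower, beside 20.2%. No gene was lower at an unadjusted p under 0.05 either, and DESeq2 and limma-voom also gave 0. Without ANKRD1, the calls were 4 higher and 4 lower of 9 with RSF1 against control, and 6 higher of 9 between the constructs. The median log2 fold change of the 10 genes was 0.73 between the constructs, 0.69 without ANKRD1, against 0.00168 over all genes. The comparisons with control share the same 3 control libraries, and each pair of SKOV3 comparisons shares a group. Library ranges did not overlap for 69% of all genes with RSF1 against control, 72.9% with RSF1delUAB against control and 46.9% between the constructs.

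**Figure D1:**
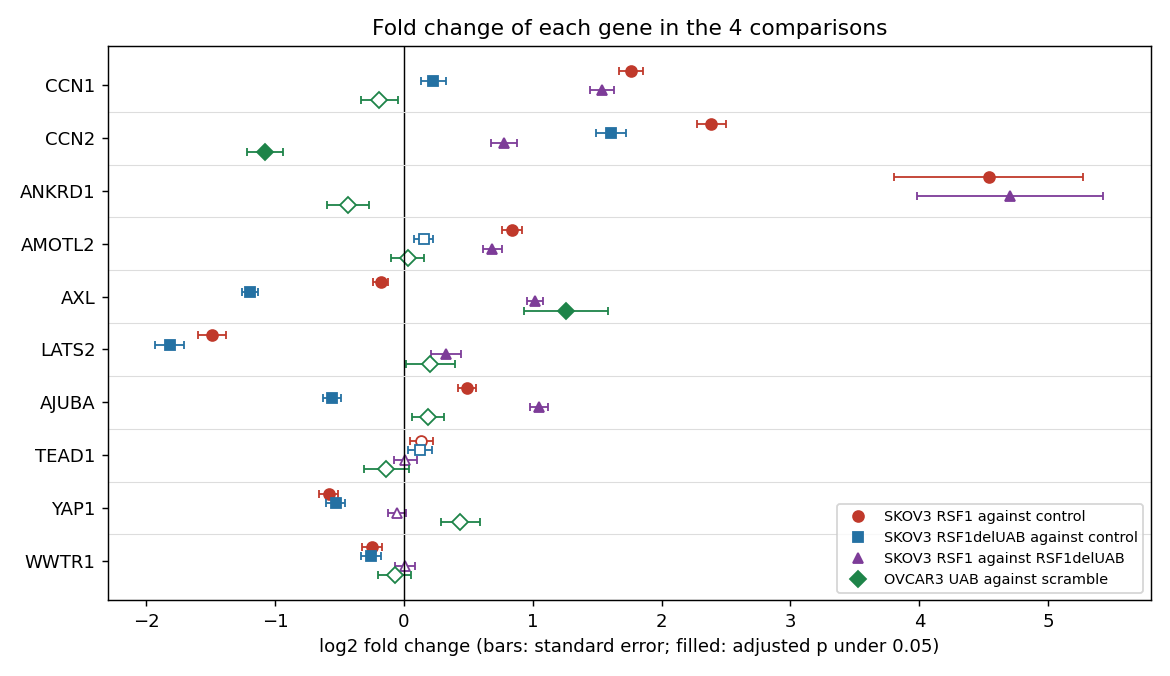
Log2 fold change of each of the 10 genes (x axis) in the 4 comparisons, with bars for the standard error and filled symbols for an adjusted p under 0.05. The 7 targets and regulators from CCN1 to AJUBA lie to the right of 0 for RSF1 against RSF1delUAB (triangles), while TEAD1, YAP1 and WWTR1 lie close to 0. No value is drawn for ANKRD1 in RSF1delUAB against control, where each group had 2 counts.

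CCN1 and CCN2 are secreted matricellular proteins and the most used readouts of YAP activity. CCN1 (ENSG00000142871, GRCh38 chromosome 1, 85580761 to 85584589, plus strand) stood at 22.9, 26.1 and 25.0 CPM in the control libraries, 87.4, 78.0 and 86.4 in RSF1 and 33.1, 26.1 and 27.5 in RSF1delUAB libraries. The 3 RSF1 libraries lay above all others, and the RSF1delUAB and control ranges overlapped. CCN1 was 3.40-fold higher with RSF1 than in control (log2 1.77 ± 0.0927 SE, adjusted p = 1.43e-12) and 2.90-fold higher than with RSF1delUAB (1.54 ± 0.0903, adjusted p = 3.98e-11). RSF1delUAB against control passed narrowly (log2 0.23 ± 0.0965, adjusted p = 0.0427). That call was lost without control replicate 1 (adjusted p = 0.167), control replicate 3 (0.0731) or RSF1delUAB replicate 1 (0.303), and by DESeq2 (0.0514) and limma-voom (0.0611). In bulk RNA, a change in the share of cells that express a gene and a change in RNA per cell cannot be told apart.

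CCN2 (ENSG00000118523, chromosome 6, 131948176 to 131951372, minus strand), whose promoter carries the 3 matches printed above, stood at 6.55, 5.44 and 6.66 CPM in control, 33.9, 31.4 and 32.3 in RSF1 and 17.7, 18.1 and 21.2 in RSF1delUAB libraries. The 3 groups did not overlap, with RSF1 highest and control lowest. CCN2 was 5.23-fold higher with RSF1 than in control (log2 2.39 ± 0.115, adjusted p = 3.69e-13) and 3.05-fold higher with RSF1delUAB than in control (1.61 ± 0.119, adjusted p = 2.71e-10). RSF1 exceeded RSF1delUAB by 1.72-fold (0.78 ± 0.0989, adjusted p = 2.77e-06). Fibroblasts also express CCN2, and the summed fibroblast markers were above control in both construct groups, highest with RSF1delUAB and not with RSF1. Their part in the CCN2 values was not tested.

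ANKRD1 encodes a nuclear ankyrin-repeat protein of stressed muscle and is a direct YAP target. ANKRD1 (ENSG00000148677, chromosome 10, 90912096 to 90921087, minus strand) had 2, 0 and 0 counts in the control libraries, 19, 21 and 16 in RSF1 and 0, 1 and 1 in RSF1delUAB libraries. It was thus near the limit of detection outside the RSF1 group, whose 3 libraries lay above all others at 1.24, 1.33 and 1.01 CPM. Over each group, 56 counts with RSF1 against 2 in control gave a ratio of 27.2, with a 95% interval of 7.19 to 230.2 that covers counting error only. Against RSF1delUAB, also with 2 counts, the ratio was 31.2 (8.24 to 263.9). Because the filter kept ANKRD1 only for its RSF1 counts, its test is not used as support. Between RSF1delUAB and control no difference was detectable at this depth, and no fold is given.

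AXL, a receptor tyrosine kinase for GAS6, is a YAP target linked to invasion. AXL (ENSG00000167601, chromosome 19, 41219223 to 41261766, plus strand) stood at 327, 332 and 313 CPM in control, 282, 286 and 290 in RSF1 and 142, 134 and 148 in RSF1delUAB libraries. The 3 groups did not overlap, with control highest. RSF1delUAB libraries were 2.29-fold below control (log2 -1.20 ± 0.0619, adjusted p = 1.14e-12). RSF1 exceeded RSF1delUAB 2.02-fold (1.02 ± 0.0618, adjusted p = 6.82e-11). RSF1 against control was small (log2 -0.18 ± 0.0606, adjusted p = 0.0130). It was no longer called without control replicate 1 (adjusted p = 0.0603) or control replicate 2 (0.0557), or with library totals as the only scaling (0.0807).

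AMOTL2, LATS2 and AJUBA are targets or partners that act on the pathway itself: AMOTL2 binds YAP and holds it out of the nucleus, LATS2 phosphorylates it, and AJUBA binds LATS kinases and restrains them. AMOTL2 (ENSG00000114019, chromosome 3, 134355347 to 134375479, minus strand) stood at 57.9, 64.5 and 60.7 CPM in control, 102, 105 and 120.4 in RSF1 and 69.2, 67.9 and 66.5 in RSF1delUAB libraries. RSF1 libraries were highest, and RSF1delUAB libraries lay just above control without overlap. AMOTL2 was 1.79-fold higher with RSF1 than in control (log2 0.84 ± 0.0755, adjusted p = 5.49e-09) and 1.61-fold higher than with RSF1delUAB (0.69 ± 0.0746, adjusted p = 3.50e-07). RSF1delUAB against control did not pass (log2 0.15 ± 0.0761, 95% interval -0.00613 to 0.312, adjusted p = 0.0835). It passed without RSF1 replicate 1 (adjusted p = 0.0222) or replicate 3 (0.0497), in a fit of only those groups (0.0150), or with library totals as the only scaling (0.0254).

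AJUBA (ENSG00000129474, chromosome 14, 22971177 to 22982551, minus strand) stood at 106, 113 and 108 CPM in control, 145, 153 and 161 in RSF1 and 79.7, 72.0 and 70.3 in RSF1delUAB libraries. Control lay between the constructs with no overlap, so the direction against control differed by construct. AJUBA was 1.41-fold higher with RSF1 (log2 0.49 ± 0.0693, adjusted p = 3.03e-06) and 1.47-fold lower with RSF1delUAB (-0.56 ± 0.0705, adjusted p = 7.63e-07). The difference between the constructs was 2.07-fold (1.05 ± 0.0702, adjusted p = 2.98e-10).

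LATS2 (ENSG00000150457, chromosome 13, 20973036 to 21061586, minus strand) stood at 39.3, 43.0 and 38.6 CPM in control, 12.5, 15.6 and 14.9 in RSF1 and 11.4 ± 1.503 (SD, n = 3) in RSF1delUAB libraries (188, 225 and 184 counts). Both constructs lay below control without overlap, and their own ranges overlapped. LATS2 was 2.81-fold lower with RSF1 (log2 -1.49 ± 0.108, adjusted p = 2.11e-10) and 3.53-fold lower with RSF1delUAB (-1.82 ± 0.110, adjusted p = 1.23e-11) than in control. The difference between the constructs passed only narrowly (0.33 ± 0.118, adjusted p = 0.0327). It was lost without RSF1 replicate 2 (adjusted p = 0.116), RSF1 replicate 3 (0.0847), RSF1delUAB replicate 1 (0.163) or RSF1delUAB replicate 3 (0.0748), and in a fit of only those groups (0.0636).

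**Figure D2:**
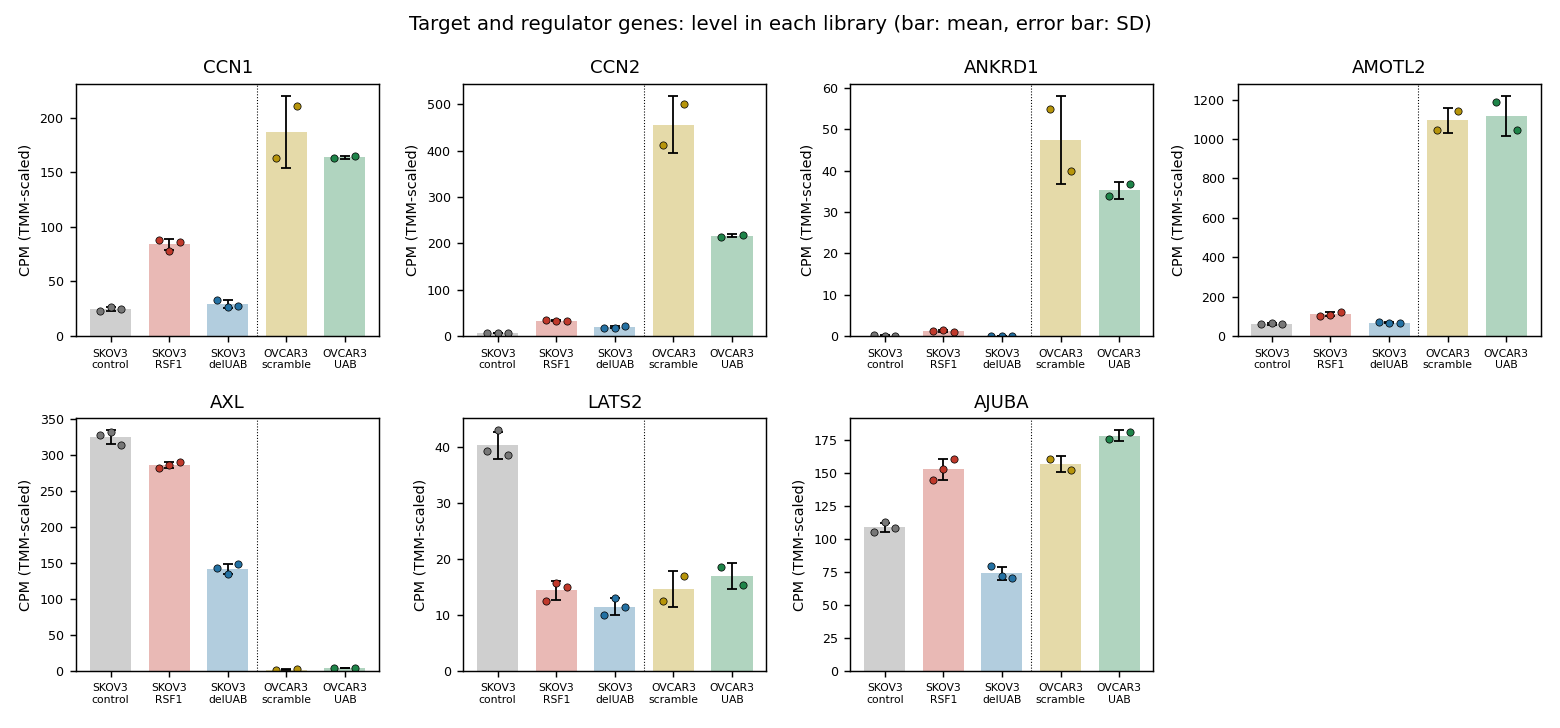
CPM (y axis, linear from 0, a scale of its own in each panel) of the 7 targets and regulators in the 5 groups, with a point per library, bars for the mean and error bars for the SD, and a dotted line between the lines SKOV3 and OVCAR3. CCN1, CCN2, ANKRD1 and AMOTL2 are highest in SKOV3 with RSF1 and far higher in OVCAR3, AXL is near 0 in OVCAR3, and LATS2 is highest in SKOV3 control.

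Neither the coactivators nor TEAD1 passed between the constructs. YAP1 (ENSG00000137693, chromosome 11, 102110447 to 102233424, plus strand) stood at 149, 142 and 150.0 CPM in control, 87.9, 104 and 102 in RSF1 and 103, 98.7 and 104 in RSF1delUAB libraries. Control lay above both constructs, whose ranges overlapped. YAP1 was 1.499-fold lower with RSF1 (log2 -0.58 ± 0.0713, adjusted p = 4.37e-07) and 1.44-fold lower with RSF1delUAB (-0.53 ± 0.0710, adjusted p = 1.58e-06) than in control. The difference between the constructs was -0.0547 on the log2 scale (95% interval -0.204 to 0.0948, adjusted p = 0.588).

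WWTR1 (ENSG00000018408, chromosome 3, 149517235 to 149736714, minus strand) stood at 158, 148 and 170 CPM in control, 143, 139 and 119 in RSF1 and 123, 135 and 142 in RSF1delUAB libraries. The constructs overlapped each other and lay just below control. WWTR1 was 1.19-fold lower than control with RSF1 (log2 -0.25 ± 0.0797, adjusted p = 0.00985) and with RSF1delUAB (-0.26 ± 0.0795, adjusted p = 0.00800). Without control replicate 3 both calls were lost (adjusted p = 0.0768 and 0.0619). The RSF1 call was also lost without RSF1 replicate 3 (0.0646) and the RSF1delUAB call without RSF1delUAB replicate 1 (0.0675). RSF1 against RSF1delUAB gave 0.00816 (95% interval -0.159 to 0.175, adjusted p = 0.948).

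TEAD1 (ENSG00000187079, chromosome 11, 12674421 to 12944737, plus strand) is a DNA-binding partner of both coactivators. It stood at 216, 202 and 220.4 CPM in control, 187, 259 and 256 in RSF1 and 222, 232 and 241 in RSF1delUAB libraries. RSF1 replicate 1 was the lowest of the 9 libraries and the other RSF1 replicates were the highest. The TEAD1 ranges of RSF1delUAB and control did not overlap. No comparison passed: log2 0.14 ± 0.0917 for RSF1 (adjusted p = 0.195) and 0.13 ± 0.0916 for RSF1delUAB (0.235) against control, and 0.01 ± 0.0914 between the constructs (95% interval -0.179 to 0.203, adjusted p = 0.935). RSF1delUAB against control passed in a fit of only those groups (0.13, adjusted p = 0.00976). Without RSF1 replicate 1, the library that stands apart, all 3 passed, at 0.28 (adjusted p = 7.01e-06), 0.13 (0.0151) and 0.15 (0.0160). YAP1 between the constructs then changed sign to 0.02 and was still not called. With or without that library, the targets and regulators besides ANKRD1 were called higher with RSF1 than with RSF1delUAB. ANKRD1 was called too, but its test is not used as support. Counting ANKRD1 and TEAD1, 8 of the 10 genes were called higher without that library, beside 3403 of all 16735 genes tested.

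**Figure D3:**
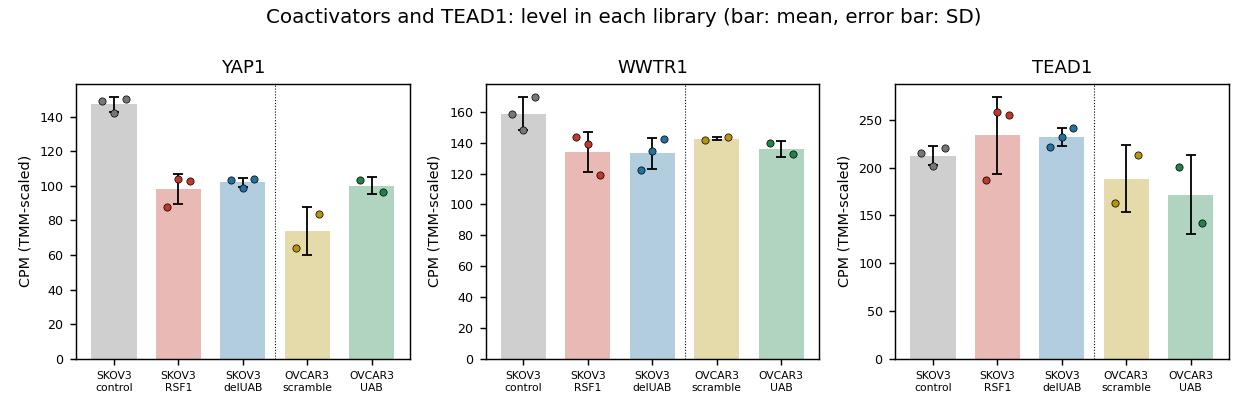
CPM (y axis, linear from 0) of YAP1, WWTR1 and TEAD1 in the 5 groups, with a point per library, bars for the mean and error bars for the SD. YAP1 is highest in the SKOV3 control libraries (142 to 150.0 CPM), and 1 of the 3 TEAD1 points of SKOV3 RSF1, at 187 CPM, lies below the other 2.

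In OVCAR3 the UAB peptide was set against the scramble control. CCN2 was lower with the peptide and AXL was higher, and the other 8 genes did not pass. These were 1 gene higher, beside 5.45% of 18359 genes tested, and 1 lower, beside 5.46%. The median log2 fold change of the 10 genes was -0.0189, against 0.00893 over all genes. CCN2 stood at 412 and 501 CPM in the scramble libraries and 214 and 219 in the UAB libraries. The groups did not overlap, as for 54.1% of all genes tested, and CCN2 was 2.11-fold lower with the peptide (log2 -1.08 ± 0.136, adjusted p = 0.000144). Summed mesothelial markers did not overlap between the groups either, at 219.5 to 233 CPM with scramble and 112 to 124 with the peptide, immune markers stood at 8.98 to 10.6 and 3.82 to 4.22 CPM, and endothelial markers at 11.7 to 14.3 and 16.6 to 22.7 CPM. Their part in the OVCAR3 values was not tested.

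AXL was barely expressed in OVCAR3, at 1.33 and 1.82 CPM with scramble (31 and 42 counts) and 4.02 and 3.49 CPM with the peptide (82 and 64 counts). It was 2.39-fold higher with the peptide (log2 1.26 ± 0.325, adjusted p = 0.0223), a call that was lost without scramble replicate 1 (adjusted p = 0.123) or UAB replicate 1 (0.0714). ANKRD1, well detected in this line, stood at 55.0 and 39.97 CPM with scramble and 33.8 and 36.7 with the peptide. These ranges did not overlap, as for 54.1% of all genes tested, but ANKRD1 did not pass (log2 -0.43 ± 0.164, adjusted p = 0.111). It passed without scramble replicate 2 (-0.64, adjusted p = 0.0146). CCN1 stood at 163 and 210.3 CPM with scramble and 163 and 164 with the peptide, overlapping ranges (log2 -0.19 ± 0.144, 95% interval -0.500 to 0.116, adjusted p = 0.446).

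AMOTL2, the highest of the 10 in CPM in OVCAR3, overlapped between groups (1048 and 1140.0 CPM against 1190.0 and 1045, log2 0.03 ± 0.128, adjusted p = 0.917). LATS2 overlapped too (12.4 and 16.9 CPM against 18.5 and 15.3, log2 0.21 ± 0.189, adjusted p = 0.549). AJUBA was at 161 and 153 CPM with scramble and 176 and 181 with the peptide, ranges that did not overlap but did not pass (log2 0.19 ± 0.128, adjusted p = 0.394). Neither coactivator passed. YAP1 stood at 64.0 and 83.7 CPM with scramble and 104 and 96.7 with the peptide, without overlap (log2 0.44 ± 0.149, adjusted p = 0.0759). YAP1 passed without scramble replicate 2 (0.65, adjusted p = 0.0163) and with no filter on low counts (0.43, adjusted p = 0.0464). WWTR1 stood at 142 and 143 CPM against 140 and 132 (log2 -0.07 ± 0.128, 95% interval -0.343 to 0.205, adjusted p = 0.798). TEAD1 ranges overlapped, with 163 and 214 CPM against 201 and 142 (log2 -0.13 ± 0.173, adjusted p = 0.690).

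The lines were scaled apart, so their levels are set side by side without a test, and they differed most in the targets. Per kilobase of gene length (RPKM, here computed from CPM and the deposited length), SKOV3 control cells had AXL highest at 63.1 ± 1.89 (SD, n = 3), then YAP1 at 23.3 ± 0.705, TEAD1 at 19.9 ± 0.898, WWTR1 at 19.0 ± 1.28 and AJUBA at 18.5 ± 0.611. AMOTL2 followed at 9.42 ± 0.511, LATS2 at 7.18 ± 0.418, CCN1 at 6.67 ± 0.446, CCN2 at 2.66 ± 0.288 and ANKRD1 at 0.0246 ± 0.0427. In that order TEAD1, WWTR1 and AJUBA overlapped, as did LATS2 and CCN1. In OVCAR3 scramble cells CCN2 led at 195 ± 26.7 RPKM (SD, n = 2) and AMOTL2 followed at 169 ± 10.03. CCN1 stood at 50.5 ± 9.02, AJUBA at 26.7 ± 1.03, ANKRD1 at 26.5 ± 5.95, TEAD1 at 17.6 ± 3.31, WWTR1 at 17.1 ± 0.144, YAP1 at 11.7 ± 2.21, LATS2 at 2.61 ± 0.572 and AXL at 0.306 ± 0.0674. Here AJUBA and ANKRD1 overlapped, as did TEAD1 and WWTR1.

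Across the 5 groups, CCN1, CCN2, ANKRD1 and AMOTL2 had the same 3 groups on top: OVCAR3 scramble, OVCAR3 UAB and SKOV3 RSF1. For CCN2 all 5 groups were apart, at 456, 216, 32.5, 19.0 and 6.22 CPM from OVCAR3 scramble and UAB to SKOV3 RSF1, RSF1delUAB and control. For CCN1 the OVCAR3 groups overlapped at 187 and 163.5 CPM, as did SKOV3 RSF1delUAB and control at 28.9 and 24.7. AXL ran the other way, from 324 CPM in SKOV3 control to 1.57 in OVCAR3 scramble, with all 5 groups apart. LATS2 was highest in SKOV3 control at 40.3 CPM, and the other 4 groups, between 11.4 and 16.9 CPM, each overlapped the next. WWTR1 and TEAD1 had the smallest ratio of highest to lowest group mean of the 10, with means of 133 to 159 CPM and of 172 to 234 CPM.

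Other genes of the pathway were read from lists by name. Of 16 other YAP and TAZ signature genes, 15 were tested in SKOV3. Between the constructs, 10 of the 15 were higher with RSF1 than with RSF1delUAB, beside 18.5% of all genes, 1 was lower and 4 did not pass, with a median log2 fold change of 0.50 against 0.00168 over all genes. IGFBP3, which binds insulin-like growth factors, stood at 1335 ± 4.07 against 375 ± 15.3 CPM (log2 1.83 ± 0.0598, adjusted p = 5.82e-15), and F3, the coagulation initiator tissue factor, at 218 ± 8.03 against 61.6 ± 1.37 (1.82 ± 0.0609, adjusted p = 7.71e-15). TGFB2 was higher by 1.86 ± 0.235, GADD45A by 1.48 ± 0.103, CCDC80 by 0.88 ± 0.0799 and CRIM1 by 0.84 ± 0.0787. The gene that was lower was PTPN14, a phosphatase that binds YAP (-0.45 ± 0.126, adjusted p = 0.00785). Against control the same 15 genes went both ways. With RSF1, 5 were higher and 7 lower (median -0.21), beside 34.3% and 32.9% of all genes, with IGFBP3 at 5.19 ± 0.0712, CCDC80 at 2.07 ± 0.0871, F3 at -2.17 ± 0.0594 and NT5E at -0.84 ± 0.0623. With RSF1delUAB, 4 were higher and 8 lower (median -0.42), beside 34.5% and 32.1%, with IGFBP3 at 3.36 ± 0.0668, ARHGEF17 at 1.40 ± 0.0849, F3 at -4.00 ± 0.0650 and NT5E at -1.34 ± 0.0632.

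**Figure D4:**
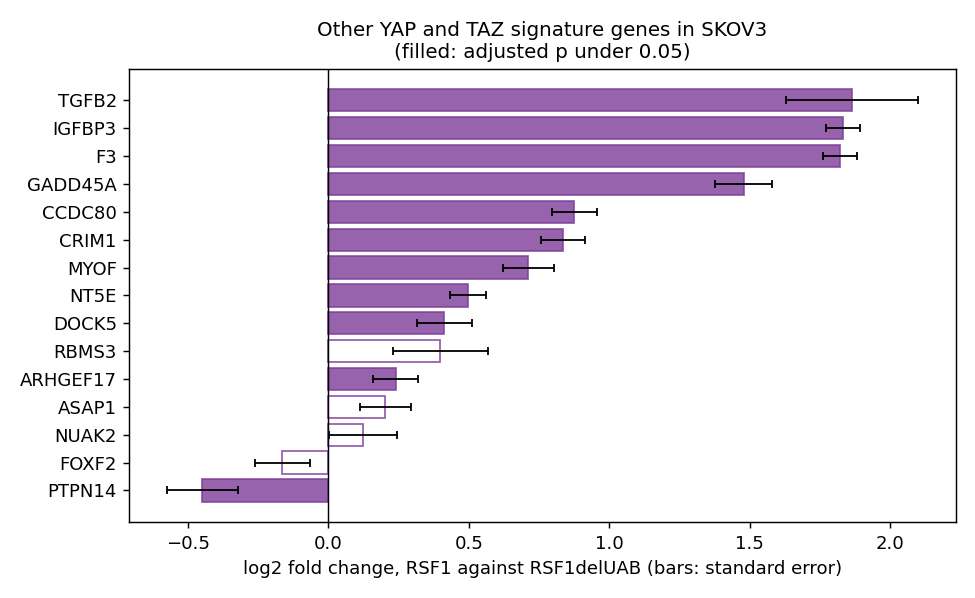
Log2 fold change of RSF1 against RSF1delUAB in SKOV3 (x axis) for the 15 other YAP and TAZ signature genes tested, with standard errors, and filled bars for an adjusted p under 0.05. The filled bars are 10 to the right of 0, from ARHGEF17 to TGFB2, and PTPN14 to the left.

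Upstream genes and partners changed in both directions. Their counts are read beside the shares of all genes called higher and lower, which were 34.3% and 32.9% for RSF1 against control, 34.5% and 32.1% for RSF1delUAB against control, and 18.5% and 20.2% between the constructs. Of 29 Hippo kinases and scaffolds, 8 were higher and 14 lower with RSF1 than in control, 6 and 12 with RSF1delUAB, and 6 and 9 between the constructs. With RSF1, the phosphatase PTPN21 rose by 1.44 ± 0.0883 and the membrane scaffold FRMD6 by 0.93 ± 0.0793, while the LATS scaffold WWC3 fell by 1.76 ± 0.102 and the kinase TAOK3 by 1.35 ± 0.0854. With RSF1delUAB, PTPN21 rose by 1.19 ± 0.0884 and NF2, the tumour suppressor merlin, by 0.49 ± 0.0750, while the protocadherin FAT4 fell by 2.73 ± 0.160 and SLMAP by 0.92 ± 0.0701. Between the constructs, AMOT, the paralog of AMOTL2, stood at 5.40 ± 0.841 CPM with RSF1 and 0.417 ± 0.257 with RSF1delUAB (log2 3.66 ± 0.358), FRMD6 was higher by 0.87 ± 0.0785, WWC3 lower at -0.86 ± 0.103 and the kinase STK3 lower at -0.44 ± 0.0812. Of 11 proteins that retain or degrade YAP, 3 were higher and 4 lower with RSF1, 3 and 5 with RSF1delUAB, and 3 and 2 between the constructs. The 14-3-3 gene YWHAH was higher with RSF1 than in control (1.06 ± 0.0606) and with RSF1delUAB than in control (0.62 ± 0.0604), and YWHAG was lower (-0.81 ± 0.0587 and -0.75 ± 0.0585).

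Among the partners on DNA, 5 of 7 other TEAD and VGLL factors were tested in SKOV3. TEAD2 and TEAD3 rose with RSF1 (0.88 ± 0.0837 and 0.66 ± 0.105) and with RSF1delUAB (1.33 ± 0.0820 and 0.61 ± 0.104) against control. VGLL4, which competes with YAP for TEAD, fell with RSF1 (-0.83 ± 0.0864) and RSF1delUAB (-0.31 ± 0.0836), and VGLL3 fell with RSF1delUAB (-0.40 ± 0.0923). Between the constructs VGLL3 was higher with RSF1 (0.27 ± 0.0926), and VGLL4 (-0.52 ± 0.0867) and TEAD2 (-0.44 ± 0.0775) were lower. Of 9 AP-1 subunits tested, 3 were higher and 4 lower with RSF1, 4 and 4 with RSF1delUAB, and 4 and 2 between the constructs, beside the shares of all genes just given. FOSL1 stood at 169 ± 5.34 CPM in control, 58.4 ± 4.88 with RSF1 and 26.7 ± 1.94 with RSF1delUAB. FOS stood at 6.20 ± 0.550 CPM in control, 4.35 ± 0.947 with RSF1 and 44.1 ± 1.06 with RSF1delUAB. JUN was higher with RSF1 than with RSF1delUAB (1.02 ± 0.0665) and JUNB lower (-0.93 ± 0.0810).

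Actin-linked targets of SRF and MRTF, which share many genes and signals with YAP, held 17 tested genes. Of these, 9 were higher and 4 lower with RSF1 than in control, 9 and 5 with RSF1delUAB, and 9 and 2 between the constructs, beside 34.3% and 32.9%, 34.5% and 32.1%, and 18.5% and 20.2% of all genes. The tropomyosin gene TPM1 stood at 74.1 ± 2.37 CPM in control, 271 ± 8.92 with RSF1 and 95.1 ± 6.18 with RSF1delUAB. TAGLN, a smooth muscle actin-binding protein, was higher with RSF1 than with RSF1delUAB (30.5 ± 1.52 against 6.73 ± 1.10 CPM, log2 2.18 ± 0.124). CNN2 rose with RSF1 (2.05 ± 0.0754) and with RSF1delUAB (1.71 ± 0.0752), and the LIM protein FHL1 fell with both (-1.39 ± 0.0633 and -0.69 ± 0.0617). FLNA, the actin cross-linker filamin A, fell with RSF1 (-0.98 ± 0.0771). Of 6 tested CCN paralogs and members of the AXL receptor family, 3 were higher and 1 lower with RSF1, and 5 and 1 with RSF1delUAB, beside the same shares. Between the constructs 0 were higher and 3 lower, with 0 higher at an unadjusted p under 0.05 and by DESeq2 and limma-voom. The AXL ligand GAS6 rose with both constructs (0.96 ± 0.0839 and 0.90 ± 0.0837), as did PROS1, a ligand of related receptors (0.83 ± 0.0695 and 1.83 ± 0.0684), while CCN3 fell with both (-1.10 ± 0.0661 and -1.18 ± 0.0660). PROS1 and CCN5 were lower with RSF1 than with RSF1delUAB (-0.998 ± 0.0652 and -1.20 ± 0.277).

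In OVCAR3, 4 of the 16 signature genes were higher with the UAB peptide and 3 lower, with a median of 0.23, beside 5.45% of all genes higher and 5.46% lower, the shares that all OVCAR3 counts below stand against. TGFB2 rose from 6.20 ± 2.17 to 31.4 ± 3.46 CPM (log2 2.34 ± 0.215, adjusted p = 7.94e-06) and the kinase NUAK2 from 27.6 ± 7.29 to 59.2 ± 3.98 (1.10 ± 0.173), while DOCK5 fell from 9.03 ± 0.251 to 1.81 ± 0.556 (-2.30 ± 0.269) and F3 from 13.8 ± 0.138 to 7.79 ± 0.979 (-0.83 ± 0.187). Without scramble replicate 1, 2 signature genes were higher in place of 4. Of the 9 AP-1 subunits, 0 were higher and 5 lower (median -1.13), beside 5.45% and 5.46% of all genes, with 0 higher at an unadjusted p under 0.05 and by DESeq2 and limma-voom. FOS fell from 254 ± 86.4 to 73.0 ± 1.22 CPM (-1.80 ± 0.190, adjusted p = 2.87e-05) and JUNB from 144 ± 13.97 to 65.8 ± 4.63 (-1.13 ± 0.138). Of the 29 Hippo genes, AMOT (0.70 ± 0.146) and PTPN14 (0.89 ± 0.202) were higher and 0 lower, with 3 lower at an unadjusted p under 0.05 and 0 by DESeq2 or limma-voom. TPM1 (1.09 ± 0.130) and MYL9 (1.16 ± 0.163) were among 3 of 18 SRF and MRTF targets that rose, PROS1 rose (1.37 ± 0.170), CCN3 fell (-0.86 ± 0.161), and SFN fell (-0.66 ± 0.169). None of 6 TEAD and VGLL factors passed with edgeR, DESeq2 or limma-voom, and 2 were higher at an unadjusted p under 0.05.

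Genes close to a member on the chromosome were summarised because the median fold change of some regions against control lay far from 0. Around LATS2, the 46 tested genes within 5 Mb had a median log2 fold change of -1.01 with RSF1 and -1.11 with RSF1delUAB against control, and those within 2 Mb had medians of -1.47 and -1.50, beside -1.49 and -1.82 for LATS2 itself. Around AJUBA, 96 genes had medians of 0.68 and 0.50, so that AJUBA with RSF1 lay near its neighbours (0.49) and AJUBA with RSF1delUAB opposite to them (-0.56). Around AXL, 245 genes had medians of 0.67 and 0.52, opposite in sign to AXL. Around YAP1, 24 genes had medians of 0.56 and 0.34, opposite in sign to YAP1, but within 10 Mb these medians were 0.00844 and 0.0132. Around AMOTL2, 51 genes had medians of 0.34 and 0.27, the same sign as AMOTL2 (0.84 and 0.15). Within 2 Mb of AMOTL2 the medians were 0.00234 and 0.0856. Around TEAD1, 60 genes had medians of 0.32 and 0.37, the same sign as TEAD1 (0.14 and 0.13). Around WWTR1, 31 genes had medians of 0.18 and 0.29, opposite in sign to WWTR1. Neighbours of CCN1, CCN2 and ANKRD1 had medians of -0.17, -0.11 and -0.29 with RSF1, while those genes were higher. Between the constructs the 10 neighbour medians ran from -0.0441 to 0.167, below the fold change of each of the 7 targets and regulators, the lowest of which was 0.33 for LATS2. In OVCAR3 the 23 neighbours of YAP1 had a median of 0.40, close to the 0.44 of YAP1, and the other medians ran from -0.0971 to 0.0842. The part of neighbouring regions in the values of the 10 genes was not tested.

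**Figure D5:**
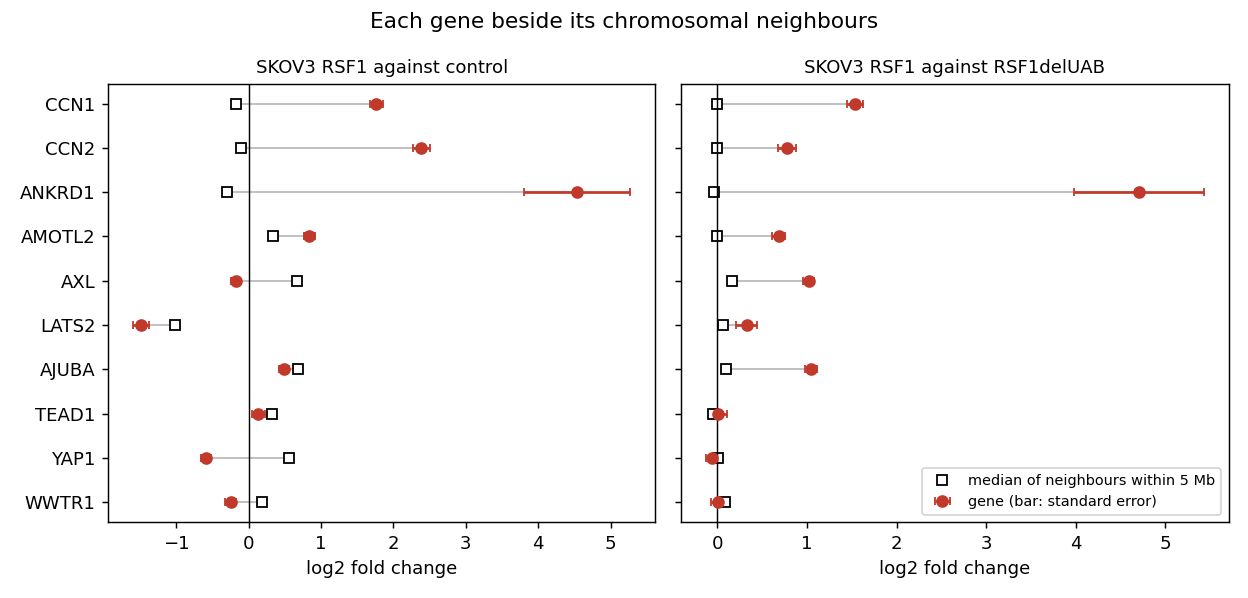
Log2 fold change (x axis) of each of the 10 genes (filled circles, with standard errors) and the median of the tested genes that start within 5 Mb (open squares), for RSF1 against control (left) and RSF1 against RSF1delUAB (right). On the left LATS2 and its neighbours lie below -1, and on the right all 10 neighbour medians lie between -0.0441 and 0.167.

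The genes most like the 3 direct targets were sought over the 9 SKOV3 libraries among 11097 genes by Pearson's r of log2 CPM, as a description, since all 9 libraries share the groups. For CCN1 these were NELL2 (r = 0.9960), TPM1 (0.9941) and RAD9A (0.9909). CCN2 was closest to THOC5 (0.9979), CD40 (0.9979) and PLOD2 (0.9971), which like CCN2 were lowest in control and highest with RSF1. ANKRD1 was closest to CYRIA (0.9789), FBXO32 (0.9750) and TPM4 (0.9749). With 0 to 2 counts in each control and RSF1delUAB library, its r mostly reflects the RSF1 libraries against the rest. TPM4, an abundant tropomyosin, had mean levels of 911 CPM in control, 1455 with RSF1 and 908 with RSF1delUAB.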

How the data were processed

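The 13 libraries were made from polyadenylated RNA with random priming, per the labels' protocols. The authors deposited raw read counts per gene, in 1 table per line, with each gene's GRCh38 position and length. FastQC, STAR 2.7.9a and Subread are named, with builds GRCh38, hg38 and GRCm38, per the submitters' processing notes. No annotation release or strand setting is given in the sources used here, so genes that overlap on opposite strands cannot be told apart. Positions overlapped those of GENCODE 29 on GRCh38 for 58219 of the 58279 genes in common, all 10 members included. A symbol was found for 62625 of 62703 genes, and 1 split record per table was rejoined. Groups came from the labels. A letter in the column name read as OVCAR3 control replicate 2 is not explained.

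The counts were used as deposited. Each line was fitted apart with edgeR 4.0.16 in R 4.3.3 (quasi-likelihood test, TMM, filterByExpr with minimum count 10, Benjamini-Hochberg over all genes tested, threshold 0.05, prior count 0.125 for fold changes). In SKOV3, 16735 genes were tested with 6 residual degrees of freedom and a biological coefficient of variation of 0.0734. In OVCAR3, 18359 genes were tested with 2 and 0.124. The fit was also run on simulated counts in which few genes changed and all shared a common spread, a simpler setting than these data. Counting intervals cover counting error only, with 95% confidence. Likeness used a prior count of 2.

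Like the members, the lists were chosen with earlier results of these data known. Text names all 10 members, up to 2 risen and 2 fallen genes of each pathway list per comparison with the smallest adjusted p, and the 3 genes most like CCN1, CCN2 and ANKRD1, passing over pseudogene and antisense names. TGFB2, GADD45A and CRIM1 between the constructs and the group levels of named genes were added after their values were seen. The alternatives tried were DESeq2 1.42.0, limma-voom (limma 3.58.1), other scalings and count filters, fits of only the groups compared, the replicate number as a block, other neighbour windows and each replicate left out.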

Additional observations from a re-analysis of the deposited data

How the results depend on the processing

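The precision is limited by 3 libraries a group in SKOV3 and 2 in OVCAR3, and by low counts for ANKRD1 in SKOV3 and AXL in OVCAR3. At a minimum count of 50, ANKRD1 left the SKOV3 fit and gave no value. Where a group was left with 1 library, that library was assumed to vary like the others. Of the 8 counts of called genes, 5 stayed within 1.5 times under every alternative tried. For RSF1delUAB against control, 2 genes were higher, and DESeq2 and limma-voom gave 1, a fit of only those groups 4, and leaving out 1 library 1 to 4 (4 without RSF1 replicate 1, and 1 without control replicate 1, control replicate 3 or RSF1delUAB replicate 1). In OVCAR3, 1 gene was higher, and no filter on low counts gave 2 and leaving out 1 library 0 to 2 (0 without scramble replicate 1 or UAB replicate 1, 2 without scramble replicate 2). There 1 gene was lower, and leaving out 1 library gave 1 to 2 (2 without scramble replicate 2).

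Replicate numbers did not pair the samples in SKOV3, where same-numbered deviations correlated at -0.0417 to 0.0712, and the replicate block gave the same counts of called genes (5 higher and 4 lower, 2 and 5, 7 and 0). In OVCAR3 same-numbered deviations correlated at -0.149, and the replicate block left 1 gene higher and 1 lower. With crossed numbers, an alternative chosen after seeing the data, the block gave 2 higher and 2 lower, and 2560 higher and 2537 lower of all genes in place of 1001 and 1003. Without scramble replicate 1 these were 604 and 690.

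Fold changes that changed sign all belonged to contrasts that did not pass. Limma-voom gave -0.00213 for TEAD1 between the constructs. Leaving out 1 library gave, between the constructs, -0.0588 to 0.154 for TEAD1, -0.0899 to 0.0229 for YAP1 and -0.0456 to 0.0869 for WWTR1. In OVCAR3 it gave -0.0623 to 0.122 for AMOTL2, -0.00149 to 0.449 for LATS2, -0.363 to 0.00295 for CCN1 and -0.404 to 0.0931 for TEAD1. The cause was not tested. Library totals as the only scaling moved the median of all genes to 0.074 at most. Of 80 neighbour medians under other windows, 36 moved by more than their error. Counts of called genes in the pathway lists stayed within 1.5 times in 823 cases under the alternatives and moved further in 59. For example, 2 proteins that retain or degrade YAP were lower between the constructs, and DESeq2 gave 1. Of the CCN paralogs and AXL receptor family, 3 were higher with RSF1 than in control, and library totals as the only scaling gave 5.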
